A study of Mus musculus with 5 samples.

Results

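Pmp22 and its closest relatives, the epithelial membrane protein genes Emp1, Emp2 and Emp3 and the lens gene Lim2, were followed through 5 RNA-sequencing libraries of mouse thyroid tumor cells. The 5 genes were taken by symbol, and 4 of them were among the 17923 genes listed in at least 1 library. The family was chosen by the measured level of Pmp22, which was nearly absent from both BVE-Ctnnb1wt libraries and present in all 3 BVE-Ctnnb1null libraries. Its values in that contrast are therefore given as a description with no test, while Emp1, Emp2, Emp3 and Lim2 came along as relatives.

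The cells were grown out of thyroid tumors of mice carrying BrafV600E, an activated kinase that both groups share. The BVE-Ctnnb1wt cells kept Ctnnb1, which encodes β-catenin, and in the cells labelled BVE-Ctnnb1null it was deleted according to the labels and the study's methods. Both wt libraries bore the same line name and passage 20, but thyroid-stimulating hormone (TSH) was given to replicate 2 and not to replicate 1, so the labels do not make them 2 separate lines. The null libraries carried 3 line names, at passage 8, 11 and 7 for replicates 1, 2 and 3. Null replicate 1 was without TSH, and the labels give no TSH state for null replicates 2 and 3. The growth protocol instead states about 25 passages for wt and 20 for null cells. Genotype, line and passage cannot be told apart, and p-values measure the spread between these libraries only. TSH did not follow the groups throughout, since wt replicate 1 and null replicate 1 were both without it. With 1 wt library in each TSH state, its part was not tested. Depth was even, with totals of 30432737 and 30713079 estimated counts in wt and 29929677, 29360002 and 29415980 in null.

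The labels were first set against the RNA. Ctnnb1 was listed at 59.3 and 73.8 FPKM (fragments scaled to transcript length and library total) in the wt libraries and at 124.6, 196.3 and 117.8 FPKM in the null libraries. The Ctnnb1 level thus went against the label of all 3 null libraries, although FPKM of whole transcripts does not separate deleted from kept exons. Below, "null" means a library labelled BVE-Ctnnb1null. Of the markers of thyroid follicular cells, Slc26a4, Foxe1, Duox2 and Iyd were at or near 0 in all 5 libraries, and thyroglobulin (Tg) was at 0.80 and 0.86 FPKM in wt and at 0.04, 0.51 and 0.34 FPKM in null. Slc5a5, the gene of the iodide transporter, reached 6.48 FPKM in null replicate 1 and was at most 1.03 FPKM elsewhere. The transcription factor Nkx2-1 was listed at 9.21 and 15.02 FPKM in wt and at 9.26, 34.83 and 0.26 FPKM in null replicates 1 to 3, and Hhex at 3.71 and 4.14 FPKM in wt and at 1.08, 20.24 and 1.38 FPKM in null. The null libraries also stood apart from each other. Epcam and Cdh1, which encode epithelial adhesion proteins, were at 152.05 and 135.74 FPKM in null replicate 1 and listed at 0 in null replicate 2.

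PMP22 and the EMPs are small membrane proteins with 4 spans, and they belong to the same protein fold as the claudins of tight junctions. PMP22 is best known from the myelin of Schwann cells, where gene dosage matters for inherited neuropathy, but it was also found as a growth arrest gene of fibroblasts and occurs at epithelial junctions. EMP1, EMP2 and EMP3 are broadly expressed and have been linked to cell adhesion, integrin trafficking and proliferation, and LIM2 is a fiber cell protein of the lens.

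How alike the 5 genes are matters for reading their counts, so the first 60 coding bases of each are shown 5′ to 3′, with the start codon in capitals.
Pmp22: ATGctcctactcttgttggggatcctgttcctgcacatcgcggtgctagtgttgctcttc
Emp1: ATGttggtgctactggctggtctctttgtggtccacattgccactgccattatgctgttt
Emp2: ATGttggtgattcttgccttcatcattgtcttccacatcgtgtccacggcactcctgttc
Emp3: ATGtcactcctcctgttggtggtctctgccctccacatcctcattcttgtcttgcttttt
Lim2: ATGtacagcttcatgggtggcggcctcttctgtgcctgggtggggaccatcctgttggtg
These come from the GENCODE annotation of GRCm38. The genes lie at chr11:63131512-63159547 (Pmp22, plus strand), chr6:135362931-135383173 (Emp1, plus strand), chr16:10281749-10313968 (Emp2, minus strand), chr7:45918023-45921404 (Emp3, minus strand) and chr7:43430088-43435996 (Lim2, plus strand). Each of these transcripts has 5 exons, and they encode 160, 160, 172, 163 and 173 codons in the same order of genes. The build the authors used is not given in the sources used here, so transcripts were matched by RefSeq identifier. Over the whole coding sequence, Emp1 and Emp2 were the closest pair with 63.2% identical aligned positions. Pmp22 shared 58.1% with Emp1, 58.8% with Emp2 and 59.2% with Emp3. Lim2 was the most distant, with 49.4% to 51.0%. The longest run of bases shared by the transcripts of any pair was 22, between Pmp22 and Emp2. No window of 50 bases of Pmp22, Emp1 or Emp3 occurred in a transcript of another gene. For Emp2, 66 of 3391 windows (1.9%) did, in 114 other genes, and Emp2 alone among the 4 listed genes had estimated counts per gene that were not whole.

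Pmp22 had 0 and 1 counts in wt replicates 1 and 2, and 446, 610 and 2369 counts in null replicates 1, 2 and 3. In FPKM it was not listed in wt replicate 1, was 0.02 in wt replicate 2, and was 8.26, 11.52 and 44.61 in the null libraries (mean 21.46 ± 20.1 SD, n = 3). The groups did not overlap, as the choice of the gene requires. The ratio of the null libraries to the single wt count was 911 (95% interval 163 to 36069) for null replicate 1, 1270 (227 to 50259) for null replicate 2 and 4924 (883 to 194582) for null replicate 3 after scaling to the library totals. These exact binomial intervals cover counting error only and are wide because the wt libraries held 1 count. As Pmp22 was chosen by this contrast, they describe the counts and are no test of it. In the null libraries Pmp22 was above 62.4%, 65.8% and 87.6% of the genes listed, so it was a moderately abundant transcript in replicates 1 and 2 and an abundant one in replicate 3. In bulk RNA, fewer cells making a transcript and less of it per cell cannot be told apart.

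The 3 null lines differed in Pmp22 by more than counting error. Null replicate 3 held 5.40 times (95% interval 4.88 to 5.99) the library-scaled counts of null replicate 1 and 3.88 times (3.55 to 4.24) those of null replicate 2. Null replicate 2 held 1.39 times (1.23 to 1.58) those of null replicate 1. Each line has 1 library, so the spread within a line is unknown.

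**Figure D1:**
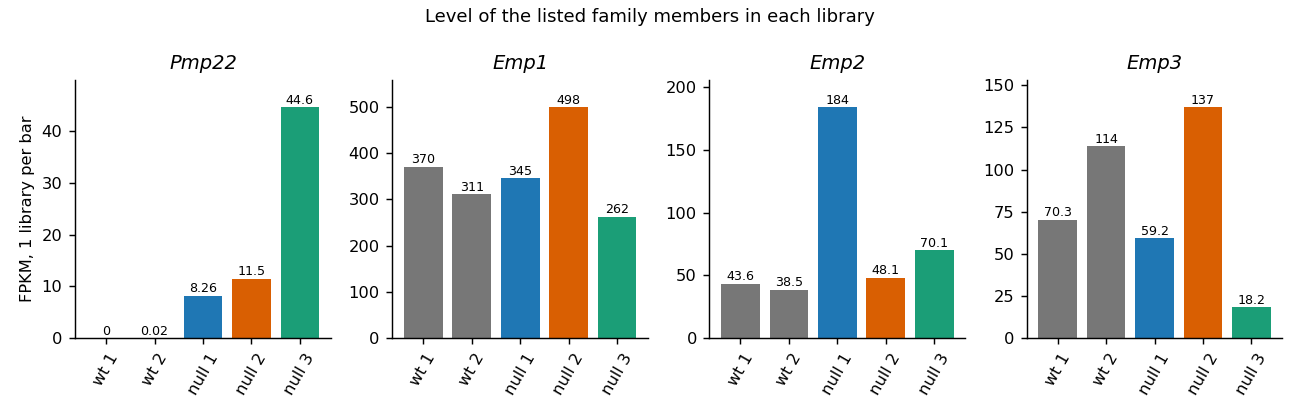
FPKM of Pmp22, Emp1, Emp2 and Emp3 in each library, where each bar is 1 library. Each gene has its own panel and its own linear axis, so bar heights do not compare between genes. Pmp22 is not listed in wt replicate 1 and spans 0.02 to 44.61 FPKM elsewhere, while Emp1 stays between 262.26 and 498.25 FPKM.

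Pmp22 was one of 11 genes, of the 17923 listed, with at most 3 counts in both wt libraries and at least 100 in every null library. These limits were set after its values were seen, and Pmp22 meets such a pattern by its choice. The 11 genes were Pmp22, Gsdme, Lef1, Add2, Dlk1, Satb1, Aldh1a7, Arhgap32, Anks6, Gm20605 and B4galt6. The reverse pattern, at most 3 counts in every null library and at least 100 in both wt libraries, was met by 4 genes (Rasgrf1, Gm8909, LOC547349 and gene14980).

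The genes whose profile over the 5 libraries was most like that of Pmp22 were Gsdme, Cibar1, Aqp1, Galm and Alpl. Likeness was the root mean square difference between profiles of log2(FPKM + 0.1), each centred on its own mean, and was 0.87, 1.02, 1.04, 1.05 and 1.17 for these genes. Aqp1, which encodes a water channel, was at 0.74 and 0.63 FPKM in wt and at 28.56, 31.62 and 46.43 FPKM in the null libraries. Alpl, the gene of tissue-nonspecific alkaline phosphatase, was at 0.21 and 0.01 FPKM in wt and at 3.91, 3.11 and 26.57 FPKM in null, and shared the high value of null replicate 3. Of the RefSeq neighbours of Pmp22 on chromosome 11, Tekt3, a gene of a tektin of sperm flagella, and Gm36874 and Gm36926 on one side and Gm12285, Gm29851 and Gm12286 on the other were listed in no library, and whether the annotation behind the files held them is not known.

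Only 1 Pmp22 transcript was listed, the RefSeq transcript NM_008885. RefSeq places 4 start windows for Pmp22, and the first and second are shown because the second, at the start nearest that of the listed transcript, differs in base composition from the one upstream. Each runs 5′ to 3′ on the plus strand of GRCm38.p6 over 300 bases, most of them before the start. Capitals mark GGAATG or its reverse complement CATTCC, the core letters that TEAD factors bind, or TATAAA.
Pmp22 upstream start, chr11:63128732-63129031: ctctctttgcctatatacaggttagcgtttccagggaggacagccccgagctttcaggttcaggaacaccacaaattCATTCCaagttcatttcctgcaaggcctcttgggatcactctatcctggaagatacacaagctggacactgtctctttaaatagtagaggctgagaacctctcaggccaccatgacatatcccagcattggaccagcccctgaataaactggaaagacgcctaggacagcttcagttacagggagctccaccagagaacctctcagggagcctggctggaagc
Pmp22 second start, chr11:63131207-63131506: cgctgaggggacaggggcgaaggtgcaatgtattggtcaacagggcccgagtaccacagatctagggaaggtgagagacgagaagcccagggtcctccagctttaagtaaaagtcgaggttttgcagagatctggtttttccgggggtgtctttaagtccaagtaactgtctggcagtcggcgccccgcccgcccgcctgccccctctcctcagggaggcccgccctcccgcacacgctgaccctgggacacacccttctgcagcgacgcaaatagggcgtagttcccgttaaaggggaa
The upstream window has 50.7% GC and 3 CpG, and the second has 60% GC and 18 CpG. Over the 32851 RefSeq start windows of this length the median was 52.7% GC and 7 CpG. GGAATG, searched on both strands, is in 14.7% of all windows and once in the upstream window of Pmp22. TATAAA is in 13.6% of all windows and in neither window shown here. A match of letters describes the sequence and shows no binding.

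Emp1 was the most abundant member in every library. It was at 370.32 and 310.84 FPKM in the wt libraries (mean 340.6 ± 42.1 SD, n = 2) and at 345.28, 498.25 and 262.26 FPKM in the null libraries (368.6 ± 120.0 SD, n = 3). The groups overlapped, with 1 null library above, 1 below and 1 between the wt libraries. In edgeR's quasi-likelihood fit over 13240 genes, adjusted by Benjamini-Hochberg, the log2 fold change of Emp1, null over wt, was -0.47 (SE 0.42, adjusted p = 0.564). The two-sided exact permutation test of its FPKM gave p = 1.0. For 2 against 3 libraries, 0.2 is the smallest p that this two-sided exact permutation test allows.

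Scaling decided the sign for Emp1. TMM normalization is edgeR's scaling of libraries by a trimmed mean of gene ratios, and its factors were 0.842 and 0.735 in wt and 1.085, 1.222 and 1.219 in null. The top 10 genes held 14.3% and 15% of all counts in wt against 6.9% to 8.0% in null, and the part of that difference in the factors was not tested. After it, Emp1 was at 1214 and 1168 CPM (counts scaled to the library total) in wt and at 872.5, 1119 and 591.0 CPM in null, so that every null library lay below both wt libraries. That pattern was met by 17.3% of all genes tested on this scale. In log2(FPKM + 0.1) tested with limma, the fold change was 0.07, and that fit called 0.00841% of genes higher and 0.0421% lower, Emp1 not among them. The median over the 11796 genes tested by all tools was 0.21 in edgeR and 0.61 in that limma fit, so Emp1 was below the median gene by both.

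Emp2 was at 43.57 and 38.51 FPKM in wt (41.04 ± 3.58 SD, n = 2) and at 183.9, 48.08 and 70.08 FPKM in null (100.7 ± 72.9 SD, n = 3). All 3 null libraries lay above both wt libraries, by little in replicate 2 and by far in replicate 1. In FPKM, 35.9% of all 13240 genes tested had every null library above both wt libraries and 7.22% had every one below, so this order was common. After TMM normalization null replicate 2, at 136.8 CPM, lay below the wt libraries at 181.1 and 183.5 CPM. By the same edgeR test and adjustment, the log2 fold change of Emp2 was 0.76 (SE 0.69, adjusted p = 0.565), and the two-sided exact permutation test of FPKM gave p = 0.2. Without null replicate 1 the edgeR log2 fold change of Emp2 was -0.15, while in FPKM null replicates 2 and 3 were still above both wt libraries.

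**Figure D2:**
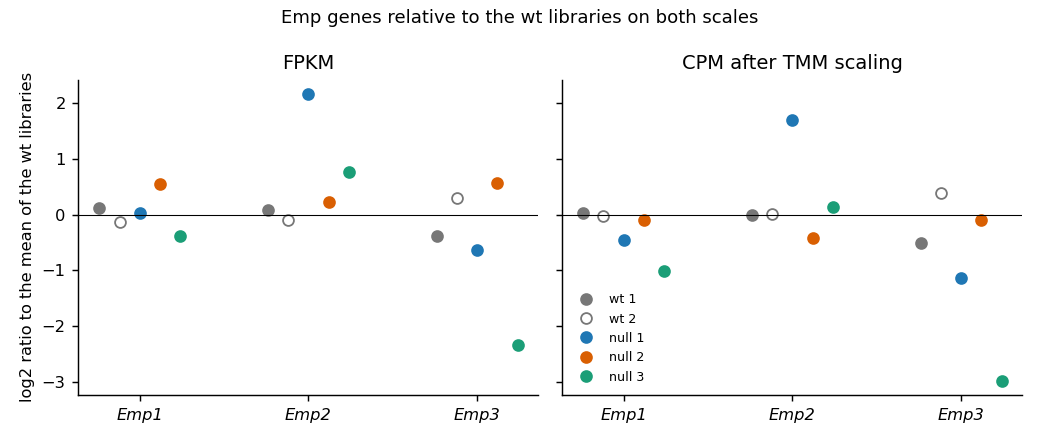
Log2 ratio of each library to the mean of the wt libraries for Emp1, Emp2 and Emp3, in FPKM (left) and in CPM after TMM scaling (right), where each point is 1 library. The null libraries sit lower on the right, where all 3 lie below both wt libraries for Emp1 and 1 of 3 for Emp2.

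Emp3 varied most among the 3 Emp genes. It was at 70.29 and 113.73 FPKM in wt (92.01 ± 30.7 SD, n = 2) and at 59.22, 136.85 and 18.24 FPKM in null (71.44 ± 60.2 SD, n = 3). The groups overlapped, with null replicate 2 the highest and null replicate 3 the lowest of all libraries in FPKM. After TMM scaling Emp3 was at 62.19 and 115.5 CPM in wt and at 40.54, 83.14 and 11.24 CPM in null, so that null replicates 1 and 3 lay below both wt libraries and null replicate 2 between them. In FPKM the highest null value was 7.50 times the lowest. The wt libraries also differed, since wt replicate 2, with TSH, held 1.62 times (95% interval 1.52 to 1.73, counting error only) the library-scaled counts of wt replicate 1. The edgeR log2 fold change of Emp3 was -0.98 (SE 0.80, adjusted p = 0.524). It was -1.88 without null replicate 2 and -0.55 without null replicate 3. The two-sided exact permutation test of FPKM gave p = 0.8.

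Emp3 was the member with more than 1 listed transcript. NM_010129 and NM_001146346 have the same coding sequence but start 553 bases apart in GENCODE, and their start windows are shown because the balance between the transcripts varied. Both run 5′ to 3′ on the minus strand of GRCm38.p6, with TATAAA in capitals.
Emp3 upstream start, NM_010129, chr7:45921377-45921676: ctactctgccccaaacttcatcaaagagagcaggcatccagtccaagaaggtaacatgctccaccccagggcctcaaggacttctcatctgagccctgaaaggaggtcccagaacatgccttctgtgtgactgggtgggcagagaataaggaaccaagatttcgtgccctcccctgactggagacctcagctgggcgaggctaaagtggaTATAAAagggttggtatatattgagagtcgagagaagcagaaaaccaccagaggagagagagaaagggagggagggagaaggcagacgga
Emp3 downstream start, NM_001146346, chr7:45920800-45921099: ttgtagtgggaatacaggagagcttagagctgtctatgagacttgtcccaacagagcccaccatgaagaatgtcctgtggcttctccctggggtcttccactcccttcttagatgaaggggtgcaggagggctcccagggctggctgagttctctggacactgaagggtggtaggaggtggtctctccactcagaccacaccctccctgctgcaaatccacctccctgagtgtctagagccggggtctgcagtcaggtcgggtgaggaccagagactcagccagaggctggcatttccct
The upstream transcript was at 62.92 and 97.71 FPKM in wt and at 47.76, 113.51 and 10.39 FPKM in null. The downstream transcript was at 7.37 and 16.02 FPKM in wt and at 11.46, 23.34 and 7.85 FPKM in null. In null replicate 3 the upstream transcript was thus the lowest of all 5 libraries, while the downstream transcript was close to its level in wt replicate 1.

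The downstream transcript took 10.9% and 14.6% of the Emp3 counts in wt and 20.0%, 17.6% and 44.0% in null replicates 1, 2 and 3. Every null library had a larger share than both wt libraries. The mean share was 12.8% ± 2.6 (SD, n = 2) in wt and 27.2% ± 14.6 (SD, n = 3) in null, 14.4 percentage points apart, and the two-sided exact permutation test gave p = 0.2. The same order was found for 13.6% of 1376 genes with a second transcript of at least 10% of counts, and the opposite order for 13.7%. Without null replicate 3 the difference was 6.1 percentage points. The longest run of bases shared by both transcripts is 568, so most reads fit either and the split is an estimate of the counting program.

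**Figure D3:**
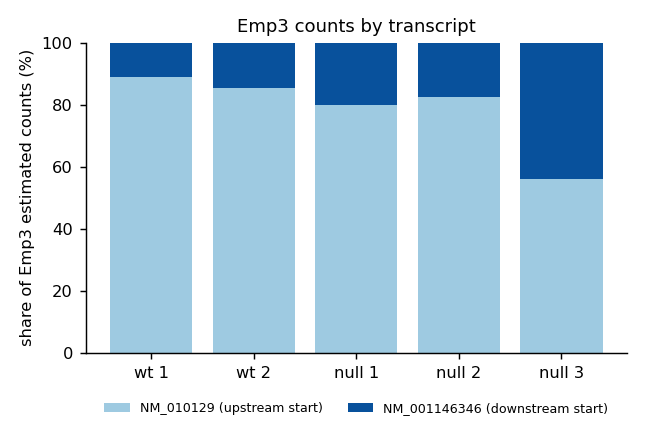
Stacked bars of the shares of the 2 listed Emp3 transcripts, which start 553 bases apart, in the gene's estimated counts in each library. The level of the gene is not shown. The share of the downstream transcript is 10.9% and 14.6% in the wt libraries and 17.6% to 44.0% in the null libraries.

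Lim2 was listed in no library. The files list transcripts from an FPKM of 0.01 upward, so a level below that was not detectable, and Lim2 entered no test.

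Summed over the family, the level was 484.2 and 463.1 FPKM in wt (473.6 ± 14.9 SD, n = 2) and 596.7, 694.7 and 395.2 FPKM in null (562.2 ± 153.0 SD, n = 3), and the groups overlapped. The ratio of the means, null over wt, was 1.19 in FPKM and 0.85 for CPM after TMM scaling, so its direction turned with the scaling. Emp1 made up 57.9% to 76.5% of the sum in every library. The step in Pmp22 therefore hardly moved the sum in null replicates 1 and 2, where Pmp22 was 1.38% and 1.66% of it, but in null replicate 3 it was 11.3%. There Pmp22, at 44.61 FPKM, was above Emp3, at 18.24 FPKM, whereas in every other library it was the lowest of the 4 listed members. Emp2 was above Emp3 in null replicates 1 and 3 and below it in the other libraries.

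Across all 13240 genes, edgeR with Benjamini-Hochberg adjustment called 0% higher and 0% lower in null, so no gene passed in that test. At an unadjusted p under 0.05, edgeR gave 1646 genes higher (12.4%) and 804 lower (6.07%), and DESeq2, with adjusted p-values, called 8.48% of 13128 genes higher and 3.71% lower. The lists below are described by counts and by the median log2 fold change beside that of all genes tested, 0.29. Members had to pass a filter on low counts, and their counts and medians are descriptions.

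The wider family of PMP22 and claudin folds had 48 genes, of which 39 were listed and 17 passed the filter. By unadjusted p 2 were higher (Perp and Cldn1) and 1 lower (Cacng8), beside 12.4% and 6.07% of all genes tested. By adjusted p it was 0, and the median log2 fold change was 1.09. It was 0.37 without null replicate 1, 2.99 without wt replicate 1, 3.56 without wt replicate 2 and 2.25 with no filter on low counts. With the replicate number as a block it turned to -1.01, and in limma with 0.01 added to FPKM it was 0.55. In FPKM the null libraries all exceeded wt for 5 of the 17 and all lay below it for 2, shares near those of all genes tested (35.9% and 7.22%). After TMM scaling it was 3 above and 4 below, beside 22.5% and 17.3%, so the balance turned with the scaling. Perp, which encodes a desmosomal protein and p53 target, was at 1.29 and 1.48 FPKM in wt and at 110.87, 4.95 and 46.95 FPKM in null (log2 fold change 4.76, SE 1.36, edgeR adjusted p = 0.192). Cldn1, a gene of tight junction strands, was at 0.36 and 0.10 FPKM in wt and at 13.26, 6.00 and 10.93 FPKM in null (log2 fold change 4.95, SE 0.85, edgeR adjusted p = 0.18). Both groups of Perp and Cldn1 values were apart on the FPKM and the TMM scale. Cldn3, Cldn4, Cldn6 and Cldn7 split the null libraries instead. Cldn4 was at 20.25 and 27.82 FPKM in wt, at 1086.62 FPKM in null replicate 1, at 0.19 FPKM in null replicate 2 and at 194.09 FPKM in null replicate 3. Pmp22, in contrast, was present in null replicate 2, where Cldn4, Cldn6 (0.04 FPKM) and Cldn7 (0.03 FPKM) were near 0.

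**Figure D4:**
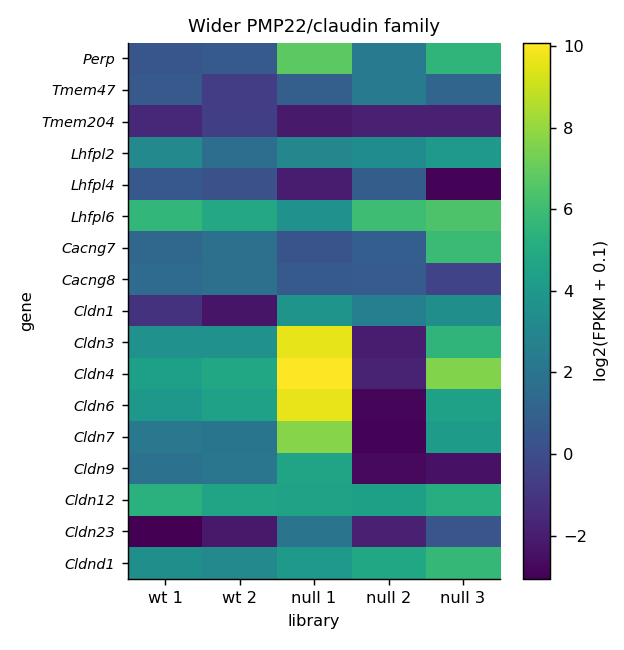
Heat map of log2(FPKM + 0.1) for the 17 genes of the wider PMP22 and claudin fold family that passed the filter, with genes in rows and the 5 libraries in columns. Cldn3, Cldn4, Cldn6 and Cldn7 are brightest in null replicate 1 and darkest in null replicate 2, and Perp and Cldn1 are brighter in all 3 null libraries than in wt.

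Of 17 genes for binding partners of PMP22 and the EMPs, 16 passed the filter, and 0 passed the adjusted threshold. By edgeR's unadjusted p under 0.05, 7 of the 16 were higher in null and 0 lower, beside 12.4% and 6.07% of all genes tested. The median log2 fold change was 1.39. In FPKM 9 of the 16 had every null library above both wt libraries and 0 below, beside 35.9% and 7.22% of all genes tested. After TMM scaling it was 6 above and 0 below, beside 22.5% and 17.3%. The integrin subunit gene Itgb5 was at 15.10 and 23.94 FPKM in wt and at 98.44, 143.87 and 81.75 FPKM in null (log2 fold change 1.86, SE 0.51, edgeR adjusted p = 0.192). Itgb1, Itgb3, Itgav and Itga6, which also encode integrin subunits, Ptk2, the gene of focal adhesion kinase, and Tjp1, the gene of the junction scaffold ZO-1, were the others with an unadjusted p under 0.05. For Src the log2 fold change was -0.03 (SE 0.57), and for Cav1 it was -0.26 (SE 0.45).

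Of 8 genes for regulators of Pmp22 transcription, 7 passed the filter, with a median log2 fold change of 1.39, or 0.85 without null replicate 2. Tead1, which encodes a DNA-binding partner of YAP, was at 1.31 and 0.62 FPKM in wt and at 4.97, 11.75 and 4.42 FPKM in null (log2 fold change 2.26, SE 0.65, edgeR adjusted p = 0.192). Yap1 itself was at 6.75 and 5.87 FPKM in wt and at 13.97, 40.57 and 21.75 FPKM in null (log2 fold change 1.40, SE 0.55, edgeR adjusted p = 0.249). Neither passed the adjusted threshold. Tead2, the most abundant TEAD gene, was at 59.37 and 73.97 FPKM in wt and at 138.14, 99.17 and 64.83 FPKM in null, with overlapping groups (log2 fold change 0.02, SE 0.51). The groups overlapped for Tead4 too (0.73, SE 0.86), and Tead3 had a log2 fold change of 1.39 (SE 0.75) and Wwtr1 of 0.91 (SE 0.53). Egr2 and Sox10, the factors that drive Pmp22 in Schwann cells, were low. Egr2 did not exceed 0.94 FPKM and Sox10 was listed in null replicate 1 alone, at 0.01 FPKM.

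Pmp22 is also known as a growth arrest specific gene, Gas3. Of the 9 other Gas genes 8 passed the filter, with a median log2 fold change of 1.23. It was 0.98 with at least 10 counts in every library and 0.76 without wt replicate 1. By unadjusted p 3 were higher (Gas6, Gas7 and Gas2l1) and 1 lower (Gas2), beside 12.4% and 6.07% of all genes tested. Gas6, with 0 and 3 counts in wt and 715, 13 and 293 in null, passed the filter through the null libraries alone. None passed the adjusted threshold of edgeR. Gas1, which blocks entry into S phase, was at 3.60 and 6.22 FPKM in wt and at 0.08, 13.16 and 29.21 FPKM in null, so the groups overlapped. Gas5, a non-coding RNA, was at 54.51 and 26.71 FPKM in wt and at 6.73, 11.39 and 46.06 FPKM in null. All 12 proliferation markers passed the filter, with a median log2 fold change of 0.69 (-0.04 without wt replicate 1) and 0 adjusted calls. Of them 2 had an unadjusted p under 0.05, both higher, beside 12.4% of all genes tested. Pcna, a clamp of DNA polymerase, was at 18.08 and 23.07 FPKM in wt and at 32.36, 134.79 and 116.87 FPKM in null (edgeR adjusted p = 0.27). Its highest value was not in the library with the most Pmp22. Of the 12 markers only Cdk1 had its highest value there, at 26.25, 47.02 and 52.34 FPKM in null replicates 1, 2 and 3.

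Markers of other cell types moved between the libraries as well, and their part in the Pmp22 and Emp values was not tested beyond the levels given here. Of 12 fibroblast markers 9 passed the filter and their FPKM summed to 327.9 and 294.9 in wt and to 1.74, 186.2 and 1492 in null replicates 1, 2 and 3. Col1a1, the most abundant in each library, was at 161.02 and 118.44 FPKM in wt and at 1.11, 104.06 and 570.48 FPKM in null. The library with the most Pmp22, null replicate 3, thus had the most fibroblast marker RNA, including Postn at 101.56 and Thy1 at 88.47 FPKM. In null replicate 1, where Pmp22 was at 8.26 FPKM, the fibroblast sum was 1.74 FPKM and Pdgfrb was listed at 0, and in wt, where Pmp22 was nearly absent, the sum was higher.

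Of 15 Schwann cell and myelin markers 14 were listed and 7 passed the filter, and their FPKM summed to 12.57 and 7.25 in wt and to 60.49, 7.99 and 12.02 in null. Dhh, the highest of them in null replicate 1 at 28.24 FPKM, was at 0.04 FPKM in null replicate 2, where Erbb3 was the highest at 3.30 FPKM. Of the defining markers, Sox10 and S100b did not exceed 0.06 FPKM in any library, and Foxd3 was not listed. Other members varied. Mbp was at 2.25 and 1.84 FPKM in wt and at 11.63, 0.56 and 2.34 FPKM in null. Pmp2 was at 0 and 0.02 FPKM in wt and at 0, 2.21 and 0.43 FPKM in null. Gjb1 reached 1.99 FPKM in null replicate 1, and Prx was highest in wt replicate 1 at 3.78 FPKM. The 12 epithelial markers summed to 1110 and 1787 FPKM in wt and to 14170, 705.9 and 1467 FPKM in null. Keratin genes led in every library, Krt8 in wt (634.39 and 1103.53 FPKM), Krt18 in null replicate 2 (346.31 FPKM), and Krt7 in null replicates 1 and 3 (5130.95 and 461.3 FPKM). The same order of null libraries, with replicate 1 highest, replicate 3 next and replicate 2 lowest, was that of Emp2. The epithelial sums of the wt libraries were above that of null replicate 2, and their Emp2 FPKM was below that of every null library. After TMM scaling Emp2 was at 181.1 and 183.5 CPM in wt, above null replicate 2 at 136.8 CPM. A link between epithelial markers and Emp2 was not tested. The 8 endothelial markers summed to at most 0.80 FPKM. Of 8 leukocyte markers 5 were listed and 4 passed the filter, with a median log2 fold change of -0.70 (0.29 without wt replicate 2). Ptprc, which marks all leukocytes, was not listed. The macrophage marker Cd68 was at 6.09 and 14.2 FPKM in wt and at 59.81, 1.00 and 39.91 FPKM in null. Cd79a was at 0.77 and 0.59 FPKM in wt and at 0.18, 0.03 and 0.03 FPKM in null. For Lyz2 the values were 0.49 and 1.39 FPKM in wt and 0.03, 0.22 and 0.61 FPKM in null. The 14 thyroid follicular markers, of which 5 passed the filter, summed to 15.28 and 20.63 FPKM in wt and to 35.20, 68.55 and 4.86 FPKM in null. The log2 fold change was -2.13 (SE 1.00) for Tg, -0.33 (SE 1.42) for Nkx2-1, 0.30 (SE 1.27) for Hhex and 1.24 (SE 1.93) for Slc5a5, none of them past the adjusted threshold. Pax8, a thyroid transcription factor, was at 0.40 and 0.17 FPKM in wt and at 18.15, 12.78 and 2.56 FPKM in null (log2 fold change 4.75, SE 1.09, edgeR adjusted p = 0.18), in the reverse order of Pmp22 among the null libraries.

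**Figure D5:**
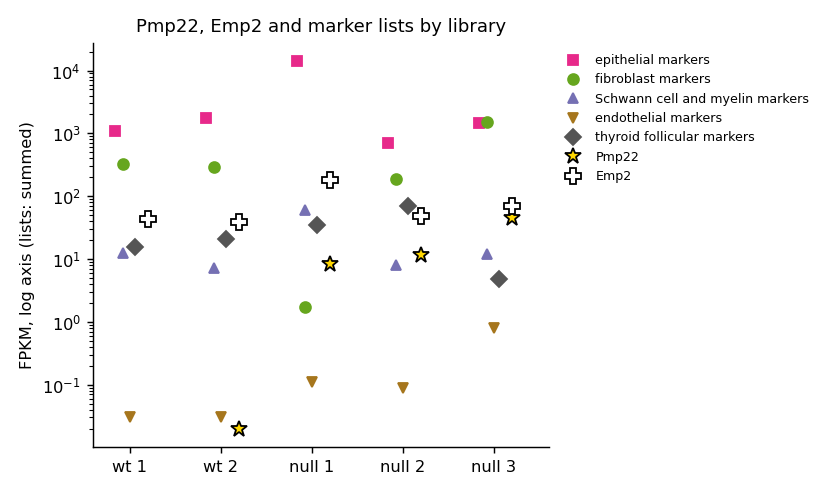
Summed FPKM of 5 marker lists with the FPKM of Pmp22 and Emp2 in each library on a log axis, where each symbol is 1 list or gene. Pmp22 is at 8.26 FPKM in null replicate 1, where the fibroblast sum is 1.74 FPKM, and at 44.61 FPKM in null replicate 3, where it is 1492 FPKM.

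The profiles most like those of the Emp genes held other genes than those most like Pmp22. By the same measure Emp1 was closest to Taco1 (0.06), Supt7l (0.08), Snd1 (0.09), Zfp324 (0.10) and Prox2 (0.10), all of them genes with a small range over the libraries. Emp2 was closest to Zc3h3 (0.08), Tmem109 (0.09), Pgap2 (0.10), R3hdm4 (0.10) and Sbk3 (0.10). Sbk3 had few counts, 1 and 1 in wt and 39, 3 and 11 in null, so the 0.1 added to FPKM weighed on its profile. R3hdm4 was at 27.89 and 29.54 FPKM in wt and at 142.72, 34.33 and 51.41 FPKM in null, with the same high value in null replicate 1 as Emp2. Emp3 was closest to Dhrs4 (0.18), Aven (0.23), Hirip3 (0.25), Ccdc125 (0.27) and Slc4a8 (0.29). Dhrs4, a gene of a short-chain dehydrogenase, was at 7.99 and 17.23 FPKM in wt and at 6.99, 16.09 and 1.81 FPKM in null, low in null replicate 3 as Emp3 was.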

How the data were processed

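Total RNA of 5 cell line libraries (2 BVE-Ctnnb1wt, 3 BVE-Ctnnb1null) was sequenced by the authors after TruSeq library preparation. For each RefSeq transcript the authors deposited an estimated count and an FPKM value, with replicates not pooled. Aligner, counting program, build and strand setting are not given in the sources used here. Estimated counts and FPKM were summed per gene, and counts were rounded. Of 17923 genes, 17866 matched a RefSeq symbol. edgeR 4.0.16 in R 4.3.3 (TMM, filterByExpr by group, glmQLFit, glmQLFTest) tested 13240 genes, with p-values adjusted by Benjamini-Hochberg and called under 0.05. Alternatives were DESeq2 1.42.0, other count filters, limma 3.58.1 on log2(FPKM + 0.1, 0.01 or 1) (genes reaching 0.5 FPKM in 2 or more libraries), omission of each library, and the replicate number as a block. The edgeR, DESeq2 and limma fits were tested on simulated data with a spread common to all genes. At the spread of these libraries edgeR recovered large changes and missed smaller ones. Those smaller changes still exceeded the fitted log2 fold changes of Emp1, Emp2 and Emp3. At a low spread limma called many unchanged genes beside large changes. Permutation tests used scipy 1.17.1 and sequences Biopython 1.88.

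Library totals were 29360002 to 30713079 counts, and 3 counts correspond to about 0.10 CPM. Intervals are 95% and cover counting error only.

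Named genes are the 5 members, members of the lists, 3 RefSeq neighbours on each side of Pmp22 and the 5 genes most like each listed member in log2(FPKM + 0.1). The genes with at most 3 counts in wt were named after their values were seen. The lists were the wider PMP22 and claudin fold family, binding partners, regulators of Pmp22 transcription, growth arrest specific genes, proliferation markers, and markers of thyroid follicular, epithelial, fibroblast, Schwann, endothelial and leukocyte cells. Members and lists were chosen with earlier results of these data known. Single genes of some lists are not reported here.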

Additional observations from a re-analysis of the deposited data

How the results depend on the processing

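No setting of edgeR, DESeq2 or limma that was run called Emp1, Emp2 or Emp3, and Emp3 kept its direction in all of them (log2 fold change -1.88 to -0.54). The number of genes called, 0 in edgeR, was 4 without a filter on low counts, 1 with at least 10 counts in every library, 1600 (1113 higher, 487 lower) with DESeq2, and 6, 4 and 8 in limma with 0.1, 0.01 and 1 added to FPKM. Leaving out each library gave 0 to 0 calls. The log2 fold change of Emp1 was 0.07 in limma with each of the 3 amounts added, against -0.47, and -0.79 to -0.30 when 1 library was left out of edgeR. That of Emp2 was between -0.15, without null replicate 1, and 1.02 when 1 library was left out. The share of the downstream Emp3 transcript differed by 6.1 to 19.2 percentage points. The fitted log2 fold change of Pmp22, 10.33, is no bound, since it depends on the prior count. It was 7.22 and 4.11 in limma with 0.1 and 1 added and between 9.21 and 13.04 when 1 library was left out, and Pmp22 fell outside the filter of at least 10 counts in every library. The summed family ratio, null over wt, was 0.85 after TMM scaling and 1.19 in FPKM. The ratio of the highest to the lowest null library for Pmp22 was 4.81 after TMM scaling and 5.40 before. The cause of these shifts was not tested, other than the scaling that defines them.

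Same-numbered libraries did not deviate together (correlation -0.09 for both pairs). The 2 values are not independent, since the deviations of 2 wt libraries from their mean mirror each other. With 1 library per null line, they cannot show whether the numbers pair the libraries. With the replicate block 0 genes were called, and the log2 fold changes were -0.27 for Emp1, 0.64 for Emp2 and -0.54 for Emp3. List medians with the block changed sign for the wider family (-1.01), thyroid (-0.29), epithelial (-0.36), fibroblast (-3.57) and Schwann cell markers (-0.19). Of 126 list medians under alternatives, over 11 lists, 83 kept their sign and differed from the main median by less than 1 SD of the list median over the null libraries, 22 differed by more and 21 changed sign. That SD is wide for epithelial markers, whose median of 3.64 was 0.58 without null replicate 1 and 0.78 to 1.53 in limma. Without the block, the sign changed for thyroid markers with at least 10 counts (-0.01) and in limma with 0.1, 0.01 and 1 added (-0.29, -0.68 and -0.06), for fibroblast markers in limma (-1.73, -1.77 and -1.46), for Schwann cell markers in limma with 0.01 added (-0.41) and for leukocyte markers with no filter (0.90) or at least 10 counts (1.18). Leaving out 1 library gave medians from -0.04 to 1.82 for proliferation, -1.95 to 0.79 for thyroid, -1.77 to 0.84 for fibroblast, -0.65 to 2.06 for Schwann cell and -1.83 to 0.29 for leukocyte markers. Of the 5 genes most like Pmp22, Emp1, Emp2 and Emp3, 2, 2, 3 and 3 were kept with 1 added to FPKM in place of 0.1. Lim2 had no value in any fit.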
